A study of Homo sapiens with 15 samples.

Results

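SS18 and SSX1 are the genes joined in the SS18-SSX1 fusion of synovial sarcoma, and their transcript levels were followed in the established line HSSYII, which was derived from such a tumour and holds the fusion. The members were taken by gene symbol: 2 genes of the 25681 symbols in the count tables, with 4 of the 48104 transcript rows. Libraries held 18580419 to 27031647 counts each. RNA-seq was performed in 5 groups of 3 libraries. Cells were treated for 6 hr with DMSO or with 100 nM dBRD9-A, a compound that directs the BRD9 protein to degradation, or were infected with GFP tagged lentivirus and harvested at 96 hr. The virus carried shRenilla, a control hairpin against a luciferase that human cells lack, or a hairpin named shSS18-SSX1-1 or shSS18-SSX1-2. The paper used the shSS18-SSX1 hairpins to knock down the fusion, so SS18 and SSX1 are parts of their target. All of these cells share the SS18-SSX1 fusion and the same medium, and the DMSO and dBRD9-A cells received no virus. Infection was performed at an MOI of 1.0 without drug selection, so each knockdown library may hold RNA of cells that took up no virus, and their share is not given. The labels do not say whether replicates are separate cultures, so p-values measure the spread between libraries, which may be technical.

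SS18 is a subunit of the BAF (SWI/SNF) chromatin remodelling complexes, which move and eject nucleosomes at promoters and enhancers. SSX1 belongs to a family of X-linked cancer-testis genes, normally expressed in the germline, and the tail of the SSX proteins recognises chromatin that Polycomb complexes have marked by ubiquitination of histone H2A. In the fusion, which a translocation between chromosomes 18 and X creates, the last residues of SS18 are replaced by the SSX1 tail, and the fused gene is read from the SS18 promoter.

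On the GRCh37 assembly, the build the study aligned to, SS18 lies on the minus strand at chr18:23596217-23671181 and SSX1 on the plus strand at chrX:48114827-48126879. The longer GENCODE model of SS18 has 11 exons, 3402 exonic bases and 418 residues. The SSX1 model has 8 exons, 1223 exonic bases and 188 residues. The usual fusion joins SS18 exon 10 to SSX1 exon 6. After exon 10 of SS18, 8 residues remain, in exon 11, which with its untranslated part holds 2128 exonic bases. From exon 6 of SSX1 on, 78 residues and 832 exonic bases remain. The breakpoint of HSSYII itself was not read from these data, and the tables count reads per annotated transcript. Reads of the fused and of the intact SS18 gene are therefore counted together in the SS18 rows.

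The coding stretches on each side of that join are shown because they identify both genes and because the SSX1 side is nearly shared with its relatives. SS18 exon 10 ends at chr18:23612363-23612422 and SSX1 exon 6 begins at chrX:48123217-48123276. Capitals in the sequences of the relatives mark bases that differ from SSX1.
SS18 exon 10, last 60 bases: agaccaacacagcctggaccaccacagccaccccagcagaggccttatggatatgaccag
SSX1 exon 6, first 60 bases: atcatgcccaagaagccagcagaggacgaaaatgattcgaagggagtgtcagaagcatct
SSX2, same stretch: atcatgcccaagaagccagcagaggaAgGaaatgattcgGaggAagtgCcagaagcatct
SSX4, same stretch: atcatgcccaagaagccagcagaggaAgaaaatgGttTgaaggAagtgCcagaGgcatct
SSX7, same stretch: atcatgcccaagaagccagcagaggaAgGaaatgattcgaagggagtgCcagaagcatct
SSX8, same stretch: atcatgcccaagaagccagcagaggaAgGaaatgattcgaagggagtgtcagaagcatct
SSX2 and SSX4, the partners of SS18 in other synovial sarcomas, differed from SSX1 at 5 and 6 of these bases, SSX7 at 3 and SSX8, annotated as a pseudogene, at 2. Reads of the study were 75 bases long. Of 1149 windows of that length along the SSX1 transcript, 12 (1.04%) occurred without a mismatch in another annotated gene and 36.2% matched an SSX relative with at most 2 mismatches. Of 3328 windows along SS18, 0 occurred without a mismatch in another annotated gene, and matches of SS18 with mismatches were not counted. By exact matches, SSX1 counts are accordingly less certain than SS18 counts where reads could be split between copies.

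In the cells without virus, both genes were expressed, SS18 at a higher CPM than SSX1. SS18 was 150, 149 and 145 CPM (counts relative to the library total, scaled by TMM) in the DMSO libraries, from 3337, 3460 and 2994 reads. SSX1 was 51.8, 51.6 and 45.6 CPM there, from 1149, 1196 and 944 reads. Per kilobase of spliced transcript the levels in DMSO were 43.5 ± 0.909 CPM per kb for SS18 and 40.6 ± 2.89 CPM per kb for SSX1 (SD, n = 3). The lengths are those of the whole GENCODE models, 3402 and 1223 bases. The lengths of the rows the study counted on are not given. A fused transcript of the usual form lacks the 2128 bases of SS18 exon 11 and holds 832 bases of SSX1. Levels per kilobase therefore depend on the lengths chosen.

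After 6 hr of dBRD9-A, neither fusion partner passed the test against DMSO. SS18 was 150, 156 and 152 CPM with dBRD9-A, and SSX1 was 52.0, 48.4 and 51.5 CPM. The dBRD9-A and DMSO libraries overlapped for both genes, although replicates 2 and 3 of dBRD9-A lay above every DMSO library for SS18. The log2 fold change of dBRD9-A over DMSO was 0.055 for SS18 (95% interval -0.013 to 0.12, adjusted p = 0.207) and 0.037 for SSX1 (95% interval -0.065 to 0.14, adjusted p = 0.604), by edgeR's quasi-likelihood test. In this comparison 35.9% of the 13652 genes tested passed the threshold of an adjusted p under 0.05. BRD9, whose protein the compound removes, was 85.5, 90.3 and 91.2 CPM in DMSO and 94.7, 89.5 and 95.7 CPM with dBRD9-A, a log2 fold change of 0.080 that did not pass the test (adjusted p = 0.122).

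Both hairpins lowered SSX1 and, by a smaller amount, SS18. SSX1 was 76.5, 58.9 and 55.4 CPM with shRenilla, 20.8, 20.6 and 18.6 CPM with shSS18-SSX1-1 and 28.7, 29.0 and 27.6 CPM with shSS18-SSX1-2. The 3 groups did not overlap, and shRenilla replicate 1 was the highest of all 15 libraries. For how many other genes the groups separate in this way was not counted. SS18 was 156, 181 and 177 CPM with shRenilla, 111, 112 and 109 CPM with shSS18-SSX1-1 and 121, 121 and 126 CPM with shSS18-SSX1-2. For SS18 too the groups did not overlap, but here shRenilla replicate 1 was the lowest of its group. In bulk RNA, fewer cells with a transcript and less of it per cell cannot be told apart.

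As a share of the shRenilla mean, SSX1 remained at 31.5% with shSS18-SSX1-1 and at 44.7% with shSS18-SSX1-2, and SS18 at 64.5% and 71.6%. The log2 fold change of SSX1 was -1.67 ± 0.12 (SE, adjusted p = 1.19e-07) with shSS18-SSX1-1 and -1.18 ± 0.12 (adjusted p = 3.01e-06) with shSS18-SSX1-2. That of SS18 was -0.63 ± 0.07 (adjusted p = 9.34e-06) and -0.49 ± 0.07 (adjusted p = 0.000102). Of all genes tested, 41.5% passed the threshold with shSS18-SSX1-1 (19.5% lower) and 34.2% with shSS18-SSX1-2 (15.9% lower). Averaged over both hairpins, SSX1 fell by 1.42 and SS18 by 0.56 on the log2 scale (adjusted p = 5.73e-08 and 4.71e-06), where 44.6% of genes passed and 22.1% were lower. Ordered from the lowest log2 fold change in this comparison, SSX1 was at place 126 and SS18 at place 949 of 14269 genes.

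shRenilla replicate 1 stood apart from the other libraries of its group over the whole table. Set against replicates 2 and 3, its chi-square over genes, divided by the degrees of freedom, was 36.5 and 27.01, and for the other 13 pairs of replicates this value was 1.33 to 9.85. Without it, SSX1 was -1.49 with shSS18-SSX1-1 and -0.99 with shSS18-SSX1-2 on the log2 scale, and SS18 -0.67 and -0.53, with adjusted p between 1.32e-08 and 8.18e-06. The share of SSX1 remaining was then 35.0% and 49.8%, and that of SS18 61.7% and 68.5%.

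**Figure D1:**
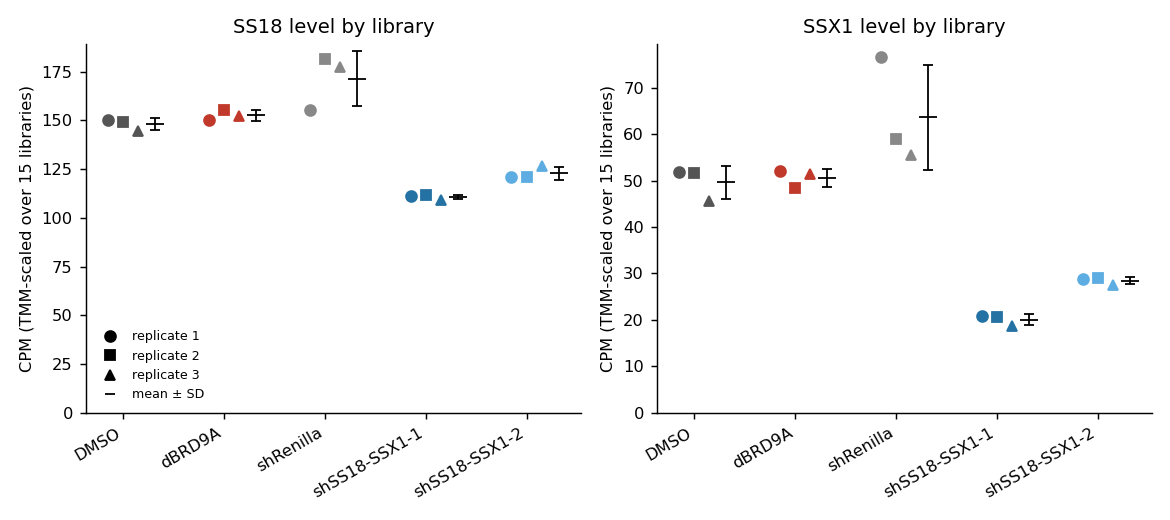
CPM of SS18 (left) and SSX1 (right) in each of the 15 libraries, TMM-scaled; symbols mark replicate numbers and bars the mean ± SD of 3 libraries. Both genes lie lowest in the hairpin groups, DMSO and dBRD9A overlap, and shRenilla replicate 1 is the highest library for SSX1 (76.5 CPM) and the lowest of its group for SS18 (156 CPM).

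The hairpins were also compared with each other. SSX1 was higher with shSS18-SSX1-2 than with shSS18-SSX1-1 by 0.49 on the log2 scale (95% interval 0.23 to 0.76), and all 3 libraries of the former lay above those of the latter. This difference did not pass the adjusted threshold (edgeR, adjusted p = 0.138), which 0.147% of genes passed, 0.119% higher and 0.028% lower. It passed without shRenilla replicate 1 (adjusted p = 0.0104) and with DESeq2 (adjusted p = 0.0165), where the genes past the threshold numbered 112 and 162 in place of 21. For SS18 the difference was 0.13 (95% interval -0.021 to 0.29, adjusted p = 0.735) and did not pass. The libraries did not overlap for either gene, and the share of all genes for which this holds was not counted.

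The control states were not alike. SS18 was 0.22 higher in shRenilla than in DMSO on the log2 scale (adjusted p = 0.0035) and SSX1 0.37 higher (adjusted p = 0.00378), in a comparison in which 54.5% of genes passed and 27.9% were higher. Without shRenilla replicate 1 these differences were 0.28 for SS18 (adjusted p = 3.47e-05) and 0.20 for SSX1 (adjusted p = 0.0174). The virus, the time in culture and the sequencing occasion cannot be told apart in this comparison.

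Tested directly, the effect of dBRD9-A minus the mean effect of both hairpins was 0.59 for SS18 (95% interval 0.44 to 0.75, adjusted p = 5.80e-06) and 1.44 for SSX1 (95% interval 1.17 to 1.71, adjusted p = 1.08e-07) on the log2 scale. Of all genes, 36.6% passed this test. The time points differ, 6 hr against 96 hr. Because both genes are parts of the hairpins' target, a fall with the hairpins was built into the design.

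**Figure D2:**
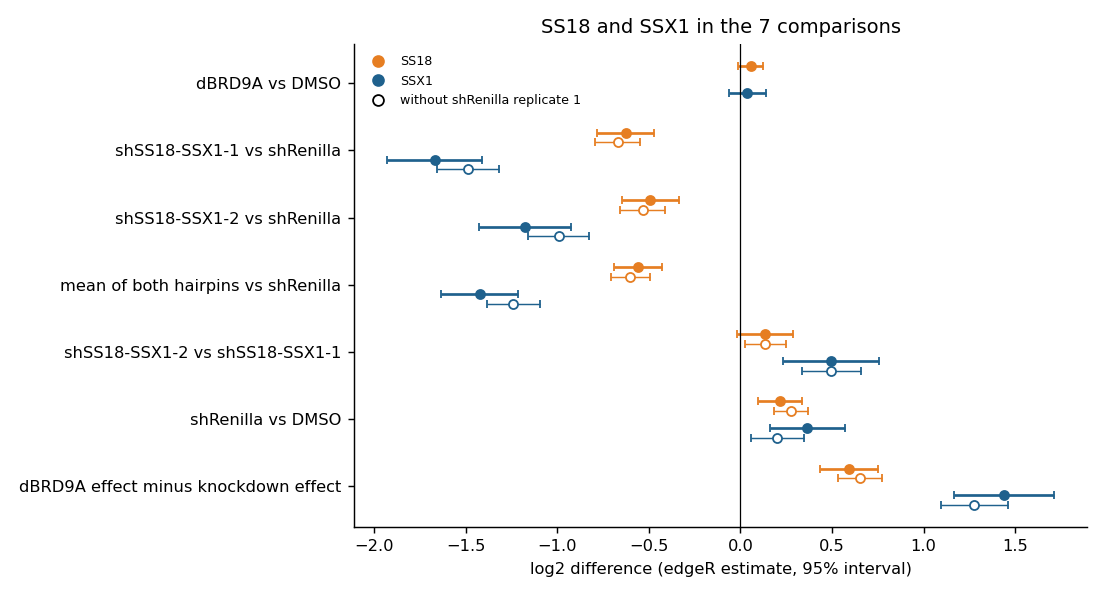
Log2 differences of SS18 and SSX1 with 95% intervals from edgeR in the 7 comparisons; filled circles use every library of the comparison and open circles leave out shRenilla replicate 1. The intervals for dBRD9A against DMSO cover 0, those for each hairpin against shRenilla lie below 0, and SSX1 lies further below 0 than SS18.

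Ordered by mean level, the groups stood in the same order for both genes: shSS18-SSX1-1, shSS18-SSX1-2, DMSO, dBRD9-A, shRenilla. For SS18 the means were 111 ± 1.22, 122.8 ± 3.19, 148 ± 3.09, 153 ± 2.798 and 171 ± 13.9 CPM, and for SSX1 20.01 ± 1.20, 28.5 ± 0.754, 49.7 ± 3.53, 50.6 ± 1.93 and 63.6 ± 11.3 CPM (SD, n = 3 each). DMSO and dBRD9-A were the only neighbours in this order whose libraries overlapped for either gene. Between dBRD9-A and shRenilla the gap for SS18 was narrow, 155.5 CPM for the highest library of the former against 155.6 CPM for the lowest of the latter.

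Because counts of both genes come from the same library, their ratio does not depend on the scaling between libraries. For each 100 SS18 reads, the DMSO libraries held 34.4, 34.6 and 31.5 SSX1 reads and the dBRD9-A libraries 34.6, 31.1 and 33.8. With shRenilla there were 49.2, 32.5 and 31.2, so replicates 2 and 3 lay close to DMSO and replicate 1 well above. With shSS18-SSX1-1 there were 18.7, 18.4 and 17.1, and with shSS18-SSX1-2 there were 23.7, 24.0 and 21.8. All 6 hairpin libraries lay below all 9 others. These 6 come from 2 hairpins whose ratios did not overlap, so they are not replicates of a single condition. The log2 ratio was lower by 0.85 in the hairpin libraries than in shRenilla (log2 difference -0.85, exact two-sided permutation test of 6 against 3 libraries, p = 0.0119, the smallest this design allows, adjusted over 4 ratio comparisons 0.0476). Without shRenilla replicate 1 the difference was -0.64 (exact permutation p = 0.0357 before adjustment, again the smallest possible, which would not pass after adjustment over 4 comparisons).

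The other ratio comparisons, of 3 libraries against 3, cannot reach a p below 0.1. The log2 ratio differed by -0.015 between dBRD9-A and DMSO (exact permutation p = 0.7, adjusted 0.9) and by 0.14 between shRenilla and DMSO (p = 0.9 by the exact permutation test, adjusted 0.9). The latter turned to -0.072 without shRenilla replicate 1. Between the hairpins it was 0.36 higher with shSS18-SSX1-2, without overlap (exact permutation p = 0.1, adjusted 0.2). Measured per kilobase of spliced transcript, the mean level of SSX1 was 35.7 CPM per kb lower with shSS18-SSX1-1 than with shRenilla and that of SS18 17.9 CPM per kb lower. With shSS18-SSX1-2 these differences were 28.8 and 14.3 CPM per kb. The lengths used are those of the whole models, 1223 bases for SSX1 and 3402 for SS18. The usual fusion holds 832 bases of SSX1 and lacks the 2128 of SS18 exon 11. Sizes per kilobase therefore depend on the lengths chosen and cannot be set against each other between the genes.

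**Figure D3:**
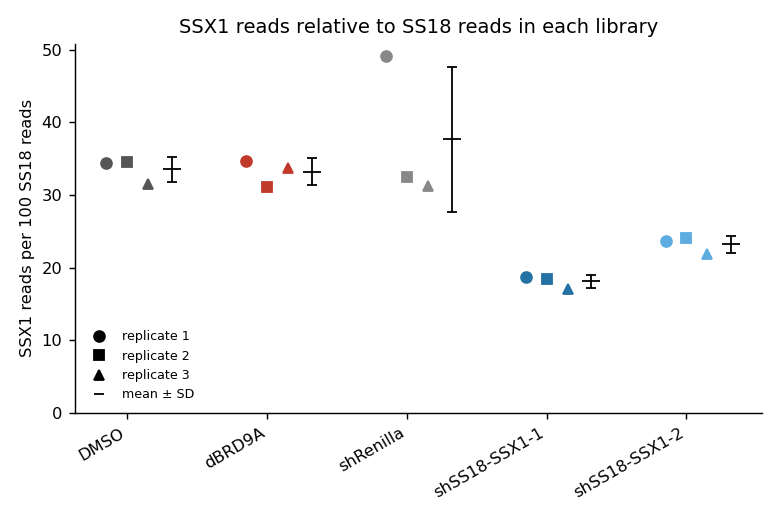
SSX1 reads per 100 SS18 reads in each library, with the mean ± SD of 3 libraries per group; the axis starts at 0. Hairpin libraries lie between 17.1 and 24.0, the others between 31.1 and 34.6 except shRenilla replicate 1 at 49.2.

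Each gene has 2 transcript rows in the tables. The SSX1 rows, NM_001278691 and NM_005635, held identical counts in all 15 libraries, so they give a single measurement. The SS18 rows, NM_001007559 and NM_005637, differed slightly. In GENCODE the longer SS18 model holds 1761 exonic bases in its last exon and the whole of exon 8 that the shorter model lacks. Exon 8 (chr18:23615795-23615887, 93 bases, 31 residues), in the tyrosine-rich part of the protein, is shown here because the proteins of both models differ by it.
SS18 exon 8: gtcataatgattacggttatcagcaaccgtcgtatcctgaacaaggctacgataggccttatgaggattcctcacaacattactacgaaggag
NM_001007559 exceeded NM_005637 by 27, 30 and 25 reads in DMSO, by 22, 19 and 20 with dBRD9-A and by 27, 31 and 30 with shRenilla. The excess was 14, 9 and 36 reads with shSS18-SSX1-1 and 21, 35 and 29 with shSS18-SSX1-2. Which bases these reads cover is not shown by the tables. The excess was 0.433% to 1.35% of the longer row, little beside 1761 of the 3402 exonic bases of the longer GENCODE model. The rows cannot therefore be taken to differ as the GENCODE models do.

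As a share of the longer row, the excess was 0.837% ± 0.0290 in DMSO and 0.560% ± 0.0640 with dBRD9-A (SD, n = 3), and these libraries did not overlap. The exact permutation test gave p = 0.1, the smallest that 3 against 3 libraries allow, and 0.4 after adjustment over 4 comparisons. In single libraries the exact 95% binomial intervals were wide: 0.534% to 1.18% for DMSO replicate 1 and 0.387% to 0.932% for dBRD9-A replicate 1. With shRenilla the share was 0.748% ± 0.0882, and with the hairpins 0.784% ± 0.495 and 1.03% ± 0.215. The hairpin libraries overlapped shRenilla (exact permutation p = 0.488). These intervals cover counting error only.

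The relatives of SSX1 were nearly silent. Of 10 SSX relatives with a row, 9 (SSX2, SSX2B, SSX3, SSX4, SSX4B, SSX5, SSX6, SSX7 and SSX9) held at most 3 reads in any library and 44 reads in sum over the 15 libraries, against 14616 reads for SSX1. SSX2 and SSX2B, like SSX4 and SSX4B, are near-identical copies whose reads could be split or dropped. SSX8 was the exception, with 37, 40 and 39 reads in DMSO, 42, 50 and 44 with dBRD9-A and 18, 11 and 14 with shRenilla. It held 6, 5 and 4 reads with shSS18-SSX1-1 and 5, 10 and 10 with shSS18-SSX1-2.

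SSX8 was lower with shRenilla than with DMSO by 1.49 on the log2 scale (log2 fold change -1.49, adjusted p = 1.41e-05), whereas SSX1 was higher there. With the hairpins its log2 fold change was -1.40 for shSS18-SSX1-1 (adjusted p = 0.00968) and -0.74 for shSS18-SSX1-2, which did not pass (adjusted p = 0.113). Their mean was -1.07 (adjusted p = 0.0115), a call that was lost without shRenilla replicate 1 (adjusted p = 0.0537). shSS18-SSX1-2 replicate 3 (0.509 CPM) lay above shRenilla replicate 2 (0.497 CPM), so these groups overlapped. With dBRD9-A its log2 fold change was 0.12 (adjusted p = 0.629). For each 100 SSX1 reads there were 3.22 to 4.15 SSX8 reads in the 6 libraries without virus and 0.784 to 1.85 in the 9 infected libraries. SSX8 differs from SSX1 at 2 bases in the stretch printed above. Over the whole SSX1 transcript, 0% of windows matched SSX8 without a mismatch and 16.4% with at most 2. How many of the SSX8 counts are reads of SSX1 was not tested.

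The paralogs of SS18, SS18L1 (also called CREST) and SS18L2, did not pass the test in any of the 7 comparisons. SS18L1 ranged from 66.9 to 87.8 CPM and SS18L2 from 17.2 to 24.4 CPM over the 15 libraries. Averaged over both hairpins, their log2 fold changes were -0.11 (95% interval -0.27 to 0.05) and -0.26 (95% interval -0.48 to -0.04, adjusted p = 0.0530).

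Among the other subunits of the BAF complexes, 25 of 26 listed genes could be tested, ACTL6B being too low. With dBRD9-A, 11 were higher and 4 lower (35.9% of all genes were called), with a median log2 fold change of 0.080 against 0.011 over all genes. SMARCC2, a core scaffold subunit, fell from 241 ± 6.83 to 175 ± 4.39 CPM (SD, n = 3), a log2 fold change of -0.45 (adjusted p = 3.10e-12). SMARCD2 and SMARCC1, also core subunits, fell by 0.24 and 0.18 on the log2 scale. GLTSCR1L, a subunit of the BRD9-containing form, rose by 0.34 (adjusted p = 6.49e-06).

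With the hairpins, 4 BAF genes were higher and 14 lower (44.6% of all genes were called), with a median of -0.20 against -0.014 over all genes. ACTL6A, an actin-related subunit, fell from 131 ± 6.78 CPM to 100.6 ± 2.37 and 110 ± 0.971 CPM, a mean log2 fold change of -0.32 (adjusted p = 0.000509). DPF1, a histone-reading subunit of neuronal BAF, fell by 0.86, ARID2 of the PBAF form rose by 0.41 and GLTSCR1, which shares a complex with BRD9, rose by 0.46. BRD9 itself was -0.18 on the log2 scale (adjusted p = 0.185). Without shRenilla replicate 1, 4 were higher and 11 lower, with a median of -0.12. Between the control states, 7 BAF genes were higher and 6 lower in shRenilla than in DMSO, out of 25, where 54.5% of all genes were called. Without shRenilla replicate 1 these counts were 8 and 10. ACTL6A, ARID1B and PHF10, a PBAF subunit, were lower there by 0.38, 0.41 and 0.35 (log2 fold changes -0.38, -0.41 and -0.35), and BCL7A was 0.45 higher.

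Of 27 Polycomb genes, 26 could be tested. With dBRD9-A, 7 were higher and 2 lower, against the 35.9% called over all genes, with a median of 0.024. PCGF3, a subunit of a non-canonical PRC1, rose by 0.19 and RYBP, which binds ubiquitinated H2A, by 0.16. BCORL1 fell by 0.25. With the hairpins, 3 were higher and 10 lower, beside the 44.6% called over all genes, with a median of -0.084. BCOR, a subunit of the non-canonical PRC1.1, was 367 ± 10.8 CPM with shRenilla and 195 ± 17.8 and 207 ± 9.86 CPM with the hairpins, a mean log2 fold change of -0.87 (adjusted p = 1.29e-07). EZH2, the H3K27 methyltransferase, fell by 0.50, while PCGF5 rose by 0.98. Without shRenilla replicate 1, 3 were higher and 9 lower, with a median of -0.041. In shRenilla against DMSO, 5 were higher and 7 lower (6 and 9 without shRenilla replicate 1), beside the 54.5% called over all genes. PHC3 and CBX8 fell by 0.88 and 0.76, and JARID2 and PHC1 rose by 0.51 and 0.50.

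**Figure D4:**
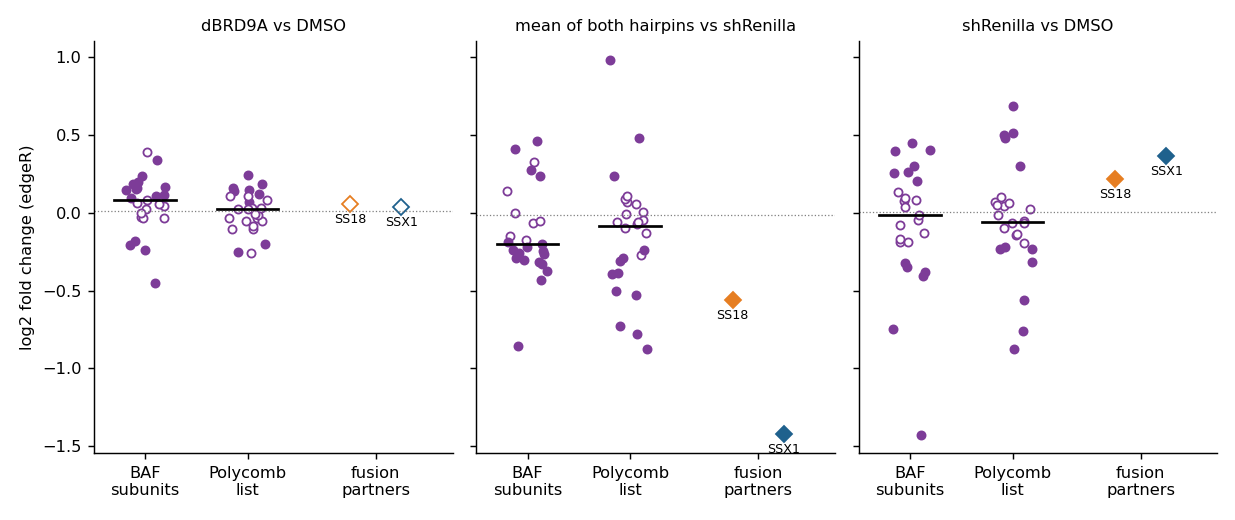
Log2 fold changes from edgeR of 25 BAF subunits and 26 Polycomb genes beside SS18 and SSX1 in 3 comparisons; filled symbols passed an adjusted p under 0.05, black lines are list medians and the dotted line the median of all genes. With the hairpins SSX1 (-1.42) lies below every gene of both lists, and with dBRD9A both fusion partners lie near 0.

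Few genes next to SS18 and SSX1 on their chromosomes were expressed. Taking the 5 nearest genes with a row on each side, in the order of the GRCh38 annotation, 3 neighbours of SS18 were high enough to be tested in each comparison: IMPACT, TAF4B and KCTD1. ZNF521, HRH4 and LOC100506787 held at most 2 reads in any library, and LOC729950, MIR320C2, PSMA8 and MIR8057 were listed at 0. With dBRD9-A, IMPACT, a regulator of translation, rose by 0.25 (adjusted p = 4.41e-06) and TAF4B, a subunit of TFIID, fell by 0.26 (adjusted p = 0.000466). In that comparison 35.9% of all genes were called. With the hairpins, KCTD1 was -0.22 (adjusted p = 0.0154, a call that was lost without replicate 1 of either hairpin), IMPACT 0.015 (adjusted p = 0.901) and TAF4B 0.24 (adjusted p = 0.0607) on the log2 scale. Here 44.6% of all genes were called. KCTD1 was 0.82 higher in shRenilla than in DMSO (adjusted p = 4.03e-09), where 54.5% of all genes were called. Around SSX1, SLC38A5 held 1 to 14 reads per library, SSX3, SSX4, SSX4B, SSX5, SSX6, SSX9 and ZNF630 at most 3, and SPACA5B and ZNF630-AS1 were listed at 0. SLC38A5 was tested with dBRD9-A (log2 fold change 0.57) and between the controls (-0.70) and did not pass.

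To describe which genes had the most similar profile, log2 CPM was correlated over the 15 libraries over the 11067 genes whose mean level was 5 CPM or more. The libraries fall into the 5 groups and share their controls, so these values describe the profile and carry no test. For SS18 the highest Pearson r were those of AUTS2 (0.984), RACGAP1 (0.982), DTL (0.980), UBR7 (0.978) and FAM72C (0.976), and the lowest those of CLU (-0.983), THBS3 (-0.977) and MAGED1 (-0.966). For SSX1 the highest were EFNA2 (0.986), STMN1 (0.986), CCNB2 (0.985), CDC45 (0.985) and CHAF1B (0.982), and the lowest PTCH1 (-0.978), VIM (-0.974) and MEF2D (-0.971). The r between SS18 and SSX1 was 0.931, which placed SSX1 at 72 among 11067 genes ordered by r with SS18, and SS18 at 190 for SSX1. EFNA2 was 37.6, 36.7 and 47.1 CPM in DMSO, dBRD9-A and shRenilla and 12.1 and 20.6 CPM with the hairpins.

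Other lists moved with the knockdown. The summed level of 10 fibroblast genes was 321 to 368 CPM with shRenilla, 902 to 943 CPM with shSS18-SSX1-1 and 1090 to 1130 CPM with shSS18-SSX1-2. In each of these groups 5 of 10 reached a mean of 1 CPM. COL1A1 was 3.29 CPM with shRenilla and 572 CPM with shSS18-SSX1-2, COL3A1 6.51 and 181 CPM, and PDGFRA 216 and 190 CPM. DCN, LUM, FAP and POSTN were at 0 with shRenilla and at most at a mean of 0.103 CPM with either hairpin. The sum of 5 epithelial genes was 0.0486 to 0.487 CPM with shRenilla and 65.3 to 68.1 and 133 to 158 CPM with the hairpins, and 3 of 5 reached 1 CPM. EPCAM and KRT19 were at 0 with shRenilla and at 0.0770 and 0.129 CPM with shSS18-SSX1-2. Skeletal muscle genes summed to at most 2.98 CPM, leukocyte genes to at most 6.85 CPM and endothelial genes to at most 0.317 CPM in any library. At these low levels, 3 of 3 tested muscle genes were higher in the mean of both hairpins (median log2 fold change 2.56). So was 1 of 1 tested leukocyte genes (0.51), where 44.6% of all genes were called. The part of these lists in the fall of SS18 and SSX1 was not tested. Of 9 synovial sarcoma markers, 6 were above 1 CPM in every group, TLE1, BCL2, PRAME, TWIST1 and ZIC2 among them. CTAG1B and CTAG2 lay below 1 CPM, and CD99 was listed at 0 in every library. Reads dropped in counting would also give such values, which was not tested. The sum of the 9 markers was 969 to 1023 CPM in DMSO, 914 to 960 CPM with dBRD9-A, 571 to 624 CPM with shRenilla and 511 to 546 CPM with the hairpins. TWIST1 alone had a mean of 390 CPM in DMSO and 108 CPM with shRenilla, and TLE1 189 and 180 CPM. Averaged over both hairpins, 2 of 6 tested markers were lower and 0 higher, where 44.6% of all genes were called. TLE1 had a mean of 183 and 193 CPM with the hairpins.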

How the data were processed

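RNA of HSSYII cells was sequenced as 75 base single-end reads in 15 libraries. The authors aligned reads with STAR to NCBI37/hg19 (GRCh37), and the deposited files hold raw counts per RefSeq transcript. The submitters' processing notes name featureCounts, and neither versions nor the strand setting were found in the sources read. The methods name ERCC spike-ins, and the tables hold 0 spike-in rows, so a shift shared by all genes cannot be seen. In the table of dBRD9-A replicate 2, 4535 rows as deposited hold part of the symbol in the count column, and the final word of that column was taken as the count. All repaired symbols matched the other tables. Of 80 symbols stored as dates, 2 were not restored. For each gene the row with the highest total was kept, since rows share reads, giving 18580419 to 27031647 counts per library.

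Counts were tested with edgeR 4.0.16 (R 4.3.3, quasi-likelihood, TMM, filterByExpr with a minimum count of 10) over all genes, adjusted by Benjamini-Hochberg, at a threshold of 0.05. The fit held 6 libraries for dBRD9-A, 9 for the knockdown, and 15 for shRenilla against DMSO and for the difference between effects. The SE was derived from the fold change and its F statistic. The ratio of SSX1 to SS18 and of the SS18 rows was compared by exact two-sided permutation over libraries. The comparison of the ratio between hairpins, and the values without shRenilla replicate 1 where given, were added after seeing the data. Sequences and exons came from GRCh37 with GENCODE v44lift37. Alternatives were DESeq2 1.42.0, limma 3.58.1, other scalings, rows and filters, a replicate block and omitting each library in turn.

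The members and lists were chosen with earlier results of these data known. Genes named are both members, their families and neighbours, BRD9, up to 4 BAF and 4 Polycomb genes per comparison with the smallest adjusted p, and the genes with the 5 highest and 3 lowest correlations. Some genes that this rule or a list holds are not reported here. On simulated counts of the knockdown comparison, 77% of genes changed 1.5-fold and 95% of those changed 2-fold were recovered. These shares were 88% and 99% for dBRD9-A against DMSO and 83% and 84% for shRenilla against DMSO.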

Additional observations from a re-analysis of the deposited data

Results flagged for a closer look

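For SS18, SSX1 and SSX8, the change under dBRD9-A (6 hr) and the change under the hairpins (96 hr) were unequal when compared directly in the fit of all 15 libraries. The effect of dBRD9-A minus the mean effect of the hairpins was 0.593 for SS18 (adjusted p = 5.80e-06), 1.44 for SSX1 (adjusted p = 1.08e-07) and 1.17 for SSX8 (adjusted p = 0.00798) on the log2 scale. All 6 hairpin libraries lay below all 3 shRenilla libraries for SS18 and SSX1. For SSX8, which held at most 50 reads in any library, 5 of 6 did. The share of all genes with such a separation was not counted. The dBRD9-A and DMSO libraries overlapped for each gene. SS18 and SSX1 are parts of the mRNA that the hairpins target, so their fall with the hairpins was built into the design. Without shRenilla replicate 1 the values were 0.65, 1.28 and 1.09. The compound and the knockdown also differ in time point and in the use of virus, which cannot be told apart here. Groups of 3 libraries are too small for a test of single outlying libraries.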

How the results depend on the processing

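For SS18 and SSX1, the direction and the side of the threshold held under DESeq2, limma voom, other scalings, no filter, other rows and 1 fit of all libraries in every comparison but that between the hairpins. There the SSX1 difference passed with DESeq2 (0.51, adjusted p = 0.0165), without a filter (0.50, adjusted p = 0.0266) and with all 15 libraries in 1 fit (0.52, adjusted p = 0.0168), and the genes past the threshold, 21 in the comparison as reported, numbered 162 with DESeq2 and 246 in 1 fit. Over these alternatives and the block, its adjusted p ranged from 0.0165 to 0.187. Replicate numbers did not pair the libraries, with correlations of deviations between -0.61 and 0.46. With a replicate block, the SS18 difference between shRenilla and DMSO was 0.17 (adjusted p = 0.178) and no longer passed, and the ratio difference of the hairpins stayed at -0.85 with p = 0.25, the smallest that 3 pairs allow in an exact sign-flip permutation. The block changed no other call.

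Leaving out each library in turn, the log2 fold change of SS18 ranged from 0.029 to 0.065 (dBRD9-A), -0.67 to -0.57 and -0.53 to -0.44 (each hairpin), -0.60 to -0.51 (their mean), 0.11 to 0.15 (between hairpins), 0.18 to 0.28 (shRenilla against DMSO) and 0.56 to 0.65 (difference of effects). For SSX1 the ranges were -0.029 to 0.068, -1.75 to -1.49, -1.25 to -0.99, -1.502 to -1.24, 0.44 to 0.53, 0.20 to 0.46 and 1.28 to 1.52. The SSX1 value with dBRD9-A turned to -0.029 without DMSO replicate 3, and the difference between hairpins, 0.50, passed without shRenilla replicate 1. The ratio difference ranged from -0.058 to 0.031 with dBRD9-A, where it turned positive without dBRD9-A replicate 2 (0.031), DMSO replicate 1 (0.0057) or DMSO replicate 2 (0.0085). It ranged from -0.97 to -0.64 with the hairpins, from -0.072 (without shRenilla replicate 1) to 0.26 between the controls and from 0.32 to 0.40 between hairpins.

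Over the same omissions, BAF, Polycomb and neighbour genes past the threshold numbered 10 to 14, 6 to 10 and 2 with dBRD9-A, 13 to 17, 11 to 13 and 0 to 1 with the hairpins, and 12 to 18, 10 to 15 and 2 to 3 between the controls, where all genes past it numbered 3748 to 5115, 5551 to 6684 and 7075 to 8182. The neighbour count with the hairpins was 2 with DESeq2 and without a filter, and 0 without replicate 1 of either hairpin. Over the 9 knockdown libraries, 1 of the 5 genes named as most correlated with SS18 (FAM72C) and 1 of the 3 least correlated (CLU) were named again, and 0 of those of SSX1.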
